A study of Mus musculus with 8 samples.

Results

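The genes described here are 10 genes by which Kupffer cells, the resident macrophages of the liver, are recognised: *Vsig4*, *Clec4f*, *Timd4*, *Cd5l*, *Spic*, *Nr1h3*, *Il18bp*, *Cdh5*, *C6* and *Folr2*. They are 10 of the 55573 genes listed in the deposited counts, and were found by matching their Ensembl identifiers to these symbols. They are genes known from liver macrophages and were selected on their expression in mutants against controls in these libraries, so that difference is given for each of them as a description and without a test. The libraries come from microglia sorted from mouse brain at P60, with 4 mutants lacking *Smad2* and *Smad3* in microglia (Smad2/3 fl/fl;Cx3cr1 Cre) and 4 controls, and each mouse gave 1 library. The labels call the controls WT, whereas the Methods state that controls generally carried the Cre and a floxed allele, so that Cre itself may be shared by both groups. The Methods describe mice backcrossed to C57BL6/J and a gate on cells carrying the TdTomato reporter, CD45 and CD11b. The Cre is expressed from the *Cx3cr1* locus, which is active in microglia and also in macrophages at the borders of the brain, so the deletion can reach those cells too.

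Kupffer cells take on their identity from their surroundings in the liver, where Notch ligands on the endothelium and BMP and TGFβ family ligands switch on *Nr1h3*, *Spic* and *Id3*. Vsig4 and Clec4f clear complement-coated particles and glycans from the blood, Timd4 binds phosphatidylserine on dying cells, and Nr1h3 (LXRα) senses oxysterols. Both cell types go back to precursors of the embryonic yolk sac, but in the adult brain microglia normally express *P2ry12*, *Sall1* and *Tmem119* in place of these genes, and TGFβ signals that pass through Smad2 and Smad3 help to keep them in that state.

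The members lie on 9 chromosomes of GRCm38, the assembly that mm10 names, and only *Vsig4* is on the X chromosome, from 96247203 to 96293438. *Clec4f* lies on chromosome 6 from 83644542 to 83656187, *Timd4* on chromosome 11 from 46810800 to 46844332, *Spic* on chromosome 10 from 88674772 to 88685015, *Nr1h3* on chromosome 2 from 91184061 to 91202834 and *Cd5l* on chromosome 3 from 87357881 to 87371073. *Il18bp* and *Folr2* are both on chromosome 7, from 102014885 to 102018690 and from 101839988 to 101857194, with 157690 bases between them. *Cdh5* lies on chromosome 8 from 104101625 to 104144511 and *C6* on chromosome 15 from 4727175 to 4814967. All 10 are protein-coding genes, and the counts cover their exons. The counts are unstranded, and 975 exonic bases of *Folr2* are shared with *Gm10602* on the opposite strand. Of the 50-base words of the *Folr2* transcripts, 52.6% occur also in transcripts of other genes, mainly *Gm10602*, so the level of *Folr2* is uncertain. The share was 4.17% for *Spic*, 0.968% for *Il18bp*, whose exons share 80 bases with *Numa1* on the opposite strand, and 0 for the other members, although 34 exonic bases of *Nr1h3* are shared with *Gm13783* on its own strand.

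RefSeq start sites gave 11 promoter windows of 250 bases for 9 of the members. Of these, 3 are shown, since *Vsig4* and *Timd4* were among the genes that were high in mutants whereas *Cd5l* was at or near 0 in both groups. The capitals mark GAGGAA on either strand, a sequence around the core that ETS family factors such as Spic and PU.1 bind. The windows are those of GRCm38.p6, given 5′ to 3′ on the strand of the gene, namely chrX:96293439-96293688 on the minus strand for *Vsig4*, chr11:46810549-46810798 on the plus strand for *Timd4* and chr3:87357631-87357880 on the plus strand for *Cd5l*.
Vsig4: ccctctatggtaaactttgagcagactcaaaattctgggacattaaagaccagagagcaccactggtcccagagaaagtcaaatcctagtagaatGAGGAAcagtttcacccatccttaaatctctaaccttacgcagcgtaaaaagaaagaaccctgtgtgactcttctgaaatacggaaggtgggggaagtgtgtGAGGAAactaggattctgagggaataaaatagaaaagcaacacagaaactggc
Timd4: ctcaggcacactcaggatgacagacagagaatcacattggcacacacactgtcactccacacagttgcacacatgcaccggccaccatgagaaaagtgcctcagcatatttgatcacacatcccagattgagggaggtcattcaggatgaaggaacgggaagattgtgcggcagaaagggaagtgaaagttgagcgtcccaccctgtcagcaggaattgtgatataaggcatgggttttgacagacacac
Cd5l: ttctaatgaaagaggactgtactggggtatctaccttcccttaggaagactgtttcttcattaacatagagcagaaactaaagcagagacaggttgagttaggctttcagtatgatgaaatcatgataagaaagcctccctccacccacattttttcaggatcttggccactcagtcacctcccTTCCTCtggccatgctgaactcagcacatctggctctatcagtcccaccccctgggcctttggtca
GAGGAA was found in 2 of the 11 windows of the members, with 2 copies at *Vsig4* and 1 at *Cd5l*, and in 23.3% of the 32851 windows of all genes. The letters CAGAC, the core that Smad3 and Smad4 bind, were found in 5 of the 11 windows (*Vsig4*, *Timd4*, *Clec4f*, *Il18bp* and *Folr2*) against 42.2% of all windows, and AGGTCA, a site that nuclear receptors bind, in 3 of the 11 (*Timd4*, *Clec4f* and *C6*) against 14.0%. None of the windows of the members held CACGTG (6.02% of all windows), GGGCGG (32.7%) or TATAAA (12.4%). Both strands were searched for each of these letters, copies of different motifs may overlap, and a match describes the sequence only.

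Between 35639502 and 41946479 counts were assigned to genes per mutant library and between 37649124 and 40932680 per control library. Of the targeted genes, *Smad3* was 15.1, 9.61, 35.1 and 17.5 CPM in mutants 1 to 4 and 39.5, 56.9, 49.0 and 49.2 CPM in controls 1 to 4 (log2 fold change -1.33 ± 0.36, adjusted p = 0.0429 by edgeR's quasi-likelihood test with Benjamini-Hochberg adjustment), where CPM are counts divided by the TMM-normalized library size and scaled, and the error is the standard error. The call of *Smad3* was lost in 7 of the 8 fits that left out 1 library and was kept only without mutant 3, with an adjusted p of up to 0.110. *Smad2* was between 42.7 and 75.9 CPM in mutants and between 62.7 and 92.4 CPM in controls (log2 fold change -0.34 ± 0.22, adjusted p = 0.340). Counts over the whole gene include exons outside the floxed ones. *Xist* was at least 99.5 CPM in all controls and at most 0.562 CPM in all mutants, and the Y-linked *Ddx3y* was at least 9.74 CPM in all mutants and at most 0.224 CPM in all controls, so genotype and sex cannot be told apart in any result below. In addition, fewer cells of a type and less RNA per cell cannot be told apart in bulk libraries.

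Of the 10 Kupffer cell genes, *Vsig4*, *Clec4f*, *Timd4* and *Spic* were near 0 in control libraries and well expressed in *Smad2/3* mutant libraries. *Nr1h3* and *Il18bp* were higher in mutants from a low level in controls, with control means of 1.58 and 3.60 CPM. *Vsig4*, *Clec4f*, *Timd4*, *Spic*, *Nr1h3* and *Il18bp* had each of the 4 mutants above each of the 4 controls. *Folr2* was higher on average but its groups overlapped, *Cdh5* was low in both groups, *Cd5l* was at or near 0 outside 1 control, and *C6* had no count in any library. These 6 of 10 members without overlap compare with 9.04% of the 20153 genes tested in which all mutants were above all controls, and nothing is read from this, since the same contrast was known when the members were chosen.

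**Figure D1:**
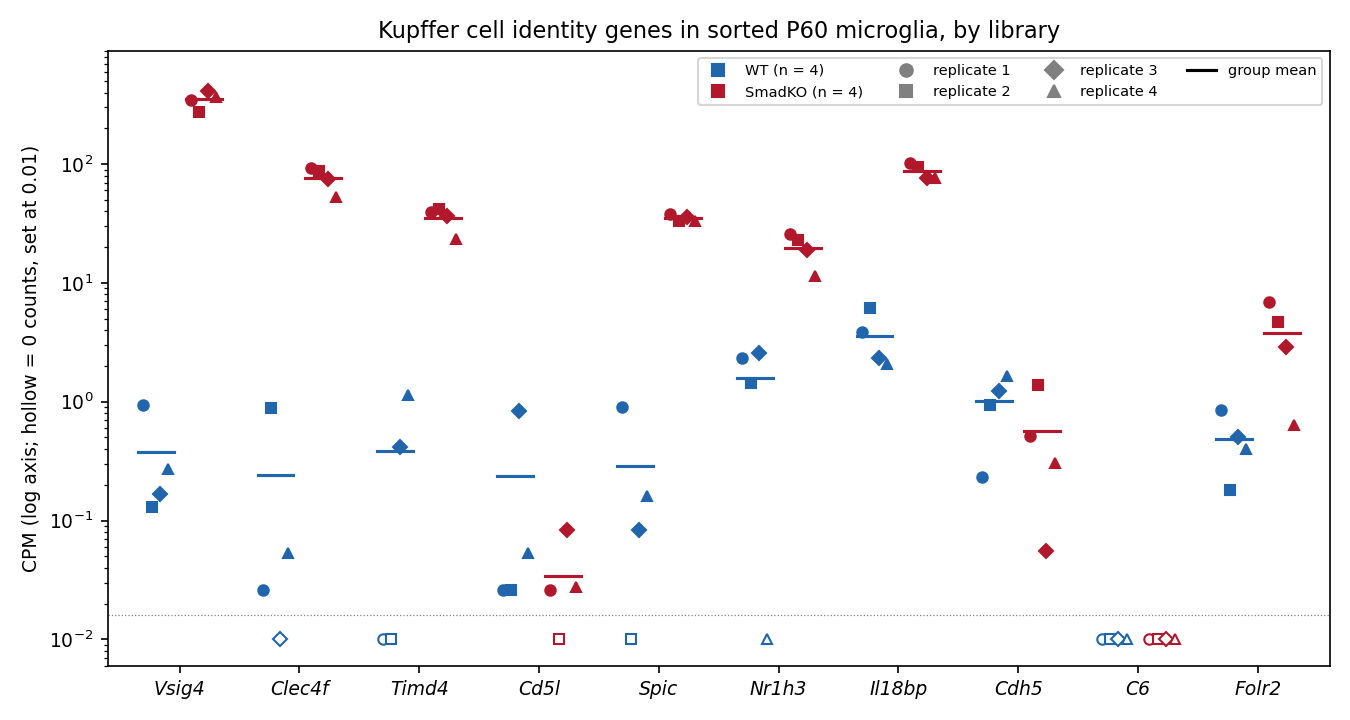
Expression of the 10 Kupffer cell genes in each library, in CPM on a log axis, with 4 control (blue) and 4 mutant (red) libraries per gene, a symbol for each replicate number and a line at each group mean. Libraries without a count are hollow and set at 0.01. For *Vsig4*, *Clec4f*, *Timd4*, *Spic*, *Nr1h3* and *Il18bp* all mutants lie above all controls, whereas *Cdh5*, *Cd5l* and *Folr2* overlap and *C6* is at 0 throughout.

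Of the surface receptors, *Vsig4*, a receptor for the C3b and iC3b fragments of complement, was 345, 276, 415 and 365 CPM in mutants 1 to 4 and 0.931, 0.130, 0.168 and 0.269 CPM in controls 1 to 4. The lowest mutant was thus far above the highest control, and the 4 controls together held 57 counts against 54192 in the mutants. The log2 fold change was 9.85 ± 0.61, and it was 10.8 without control 1, which alone held 36 of the control counts.

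*Clec4f*, a C-type lectin that binds galactose-terminated glycans and is largely restricted to Kupffer cells among mouse macrophages, was 92.7, 86.8, 75.0 and 52.4 CPM in mutants 1 to 4 and 0.0259, 0.885, 0 and 0.0538 CPM in controls 1 to 4. All mutants were above all controls, and 34 of the 37 control counts came from control 2. The log2 fold change was 8.28 ± 0.98 with all libraries and 11.3 without control 2.

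*Timd4*, the phosphatidylserine receptor by which resident macrophages bind apoptotic cells, was 39.7, 41.7, 36.9 and 23.4 CPM in mutants 1 to 4 and 0, 0, 0.420 and 1.13 CPM in controls 1 to 4. Mutant 4 was the lowest of the mutants and still above every control. The log2 fold change was 6.51 ± 1.07, and 8.04 without control 4.

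*Folr2*, the folate receptor of resident macrophages in liver, brain borders and other tissues, was 6.91, 4.69, 2.87 and 0.635 CPM in mutants 1 to 4 and 0.853, 0.182, 0.504 and 0.403 CPM in controls 1 to 4. Mutant 4 lay below control 1, so the groups overlapped, while the other 3 mutants were above every control. The log2 fold change was 2.95 ± 0.77. These counts are also those shared in part with *Gm10602*.

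The nuclear factors among the members were present in mutants as well. *Spic*, an ETS family factor required for the iron-recycling macrophages of the spleen and induced by heme, was 38.3, 33.1, 36.0 and 33.2 CPM in mutants 1 to 4 and 0.905, 0, 0.0839 and 0.161 CPM in controls 1 to 4. All mutants were above all controls, with a log2 fold change of 6.91 ± 0.90, and 8.70 without control 1, which held 35 of the 44 control counts.

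*Nr1h3*, which encodes the oxysterol receptor LXRα, was 25.7, 23.0, 18.8 and 11.5 CPM in mutants 1 to 4 and 2.35, 1.43, 2.55 and 0 CPM in controls 1 to 4. Its groups did not overlap, but the gap was smaller than for *Spic*, with 237 control counts and a log2 fold change of 3.64 ± 0.93. Of the 3 controls with counts, each held at least 55.

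Of the secreted products, *Il18bp*, a decoy that binds the cytokine IL-18, was 102, 94.0, 76.2 and 76.0 CPM in mutants 1 to 4 and 3.83, 6.17, 2.32 and 2.07 CPM in controls 1 to 4. It was the member with the highest level per length in controls and was counted at least 10 times in all 8 libraries. The log2 fold change was 4.59 ± 0.38, the smallest standard error of the 8 members fitted.

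*Cd5l*, a secreted scavenger receptor protein that Kupffer cells release under the control of LXR, held 5 counts in the 4 mutants together and 34 in the 4 controls, of which 30 came from control 3. In that library it was 0.839 CPM, and in the other 7 it was at most 0.0836 CPM. *C6*, a component of the membrane attack complex of complement, had 0 counts in all 8 libraries, which allows a level of up to 0.00977 CPM (3 counts over all libraries, counting error only). Neither gene passed the filter of at least 10 counts in at least 4 libraries, so no fold change is given for them.

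*Cdh5*, the VE-cadherin of endothelial junctions, which Kupffer cells also express, was 0.519, 1.38, 0.0557 and 0.304 CPM in mutants 1 to 4 and 0.233, 0.937, 1.23 and 1.64 CPM in controls 1 to 4. The groups overlapped, and the log2 fold change was -0.83 ± 0.92, or -1.77 without mutant 2, in which *Cdh5* was highest among the mutants.

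Of the 8 members that passed the filter, 6 (*Vsig4*, *Clec4f*, *Timd4*, *Spic*, *Nr1h3* and *Folr2*) had at least 10 counts in all mutants but not in all controls, so that they passed through the mutants. For *Vsig4*, *Clec4f*, *Timd4* and *Spic* the fold change is set by the few counts of the controls, and in each case 1 control held most of them, namely 63.2% in control 1, 91.9% in control 2, 73.7% in control 4 and 79.5% in control 1.

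**Figure D2:**
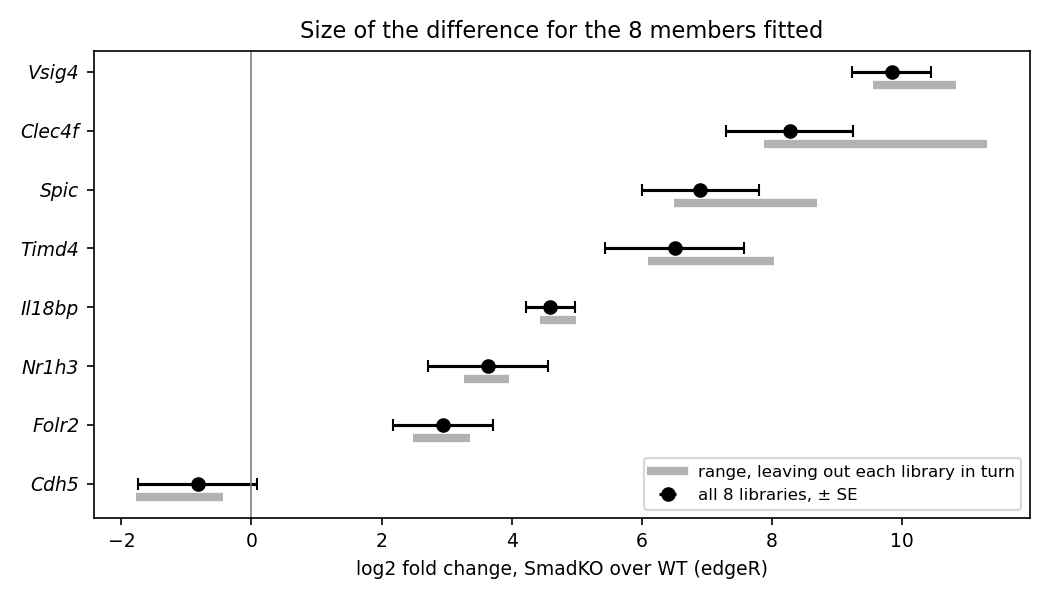
Log2 fold change of mutants over controls for the 8 members fitted (points, with the standard error as a bar) and the range of the same value when each of the 8 libraries is left out in turn (grey). The range is widest for *Clec4f*, from 7.88 to 11.3, and narrowest for *Il18bp*, from 4.43 to 4.99.

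Levels of different members are compared per length, as CPM per kilobase of exon (RPKM). In mutants *Vsig4* was the most abundant at 236 RPKM, with a range over the 4 mice of 186 to 280 RPKM that did not meet that of any other member. *Clec4f* (31.1 RPKM) and *Il18bp* (28.8 RPKM) followed, with ranges that overlapped each other. *Timd4* came next at 16.3 RPKM, above *Spic* (9.16 RPKM) and *Nr1h3* (7.85 RPKM), whose ranges overlapped. *Folr2* was lower at 2.44 RPKM, and *Cdh5*, *Cd5l* and *C6* were at or below 0.135 RPKM. In controls *Il18bp* (1.19 RPKM) and *Nr1h3* (0.629 RPKM) were the highest members, and the range of each member overlapped that of the next in the order throughout.

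The members did not vary alike among the mutants. *Spic* and *Il18bp* were the steadiest, with a coefficient of variation of 7.09% and 15.0%, and *Vsig4* was close at 16.4%. *Clec4f* and *Timd4* varied by 23.2% and 23.3%, *Nr1h3* by 31.5% and *Folr2* by 70.6%. Among the 7 members with a mutant mean of at least 1 CPM, mutant 4 was the lowest for 5 (*Clec4f*, *Timd4*, *Nr1h3*, *Il18bp* and *Folr2*) and mutant 1 the highest for 5 (*Clec4f*, *Spic*, *Nr1h3*, *Il18bp* and *Folr2*), whereas mutant 2 was the lowest for *Vsig4* and *Spic*.

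Ratios of counts between 2 members within a library do not depend on how libraries are scaled, and pairs were picked for this after their values were seen. The ratio of *Clec4f* to *Timd4* was 2.34, 2.08, 2.03 and 2.24 in mutants 1 to 4, so it spanned 1.15-fold although each gene alone spanned 1.77-fold and 1.78-fold in CPM. The ratio of *Clec4f* to *Vsig4* was 0.269, 0.314, 0.181 and 0.143, a span of 2.19-fold. With 4 mutants this is given as a description of these libraries.

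**Figure D3:**
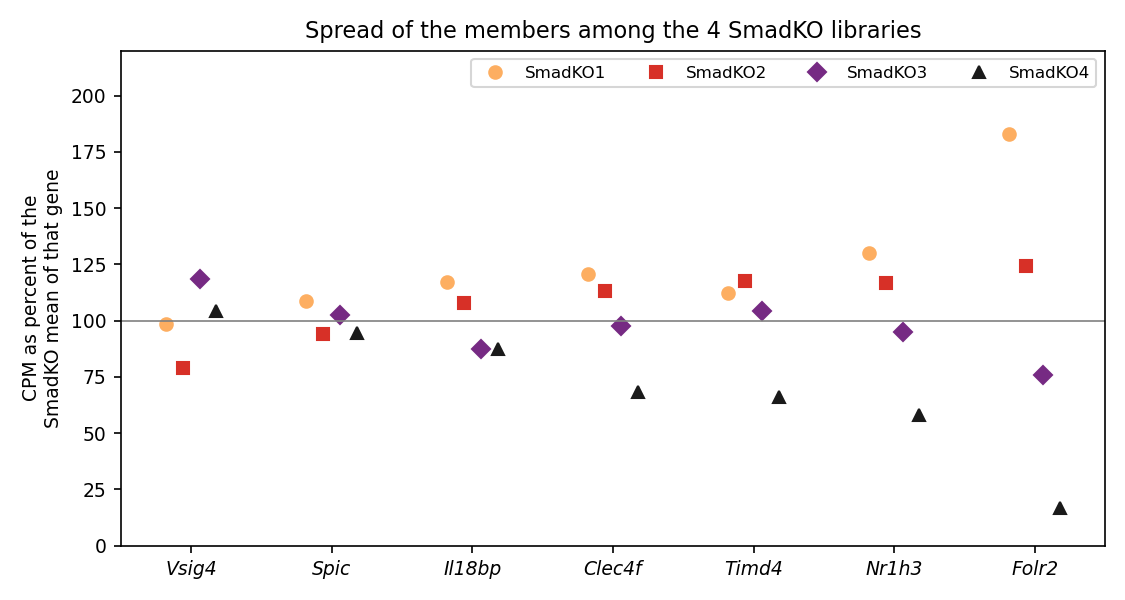
CPM of 7 members in each of the 4 mutant libraries, as a percentage of the mean of the 4 mutants for that gene (line at 100%). Mutant 4 (black triangles) is the lowest for *Clec4f*, *Timd4*, *Nr1h3*, *Il18bp* and *Folr2*, and *Folr2* has the widest spread, with a coefficient of variation of 70.6%.

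Marker lists give the RNA level of genes by which cell types are usually recognised. The paper describes reduced homeostatic genes and, less markedly than in its other mutants, increased border macrophage genes as changes within mutant microglia. The lists therefore do not give the share of each cell type, which was not tested. All 9 microglia markers fell in mutants and the summed level was 3223 to 3912 CPM in mutants against 28853 to 42963 CPM in controls, although *Cx3cr1*, the locus that drives the Cre, was still 1278 to 1349 CPM in mutants. It was 5456 to 8628 CPM in controls, which may lack the Cre. Whether the Cre at this locus changes the level of *Cx3cr1* was not tested. Of the 8 markers of border macrophages, 6 rose and none fell, and the summed level was 1650 to 2551 CPM in mutants against 57.6 to 104 CPM in controls. The most abundant was *Pf4*, at 652 to 1366 CPM in mutants and 8.64 to 15.4 CPM in controls (log2 fold change 6.48 ± 0.34, adjusted p = 2.72e-05), and *Ms4a7* was 472 to 714 CPM against 2.88 to 5.85 CPM (6.98 ± 0.30, adjusted p = 9.76e-06). *Lyve1* (1.86 ± 0.68, adjusted p = 0.109) and *F13a1* (0.19 ± 0.36, adjusted p = 0.789) did not pass the test. *Folr2* and *Timd4* are also known from border macrophages. Among the mutants, the sum of the border macrophage markers was highest in mutant 4, as were *Pf4*, *Ms4a7*, *Cbr2* and *F13a1*. *Mrc1*, *Cd163*, *Lyve1* and *Clec10a* were instead highest in mutant 3, and *Cd163* was lowest in mutant 4 (34.6 CPM). *Clec4f*, *Timd4*, *Nr1h3* and *Folr2* were lowest in mutant 4 as well. The summed red cell markers were also highest there, at 7443 CPM against at most 2127 CPM in the other 7 libraries. The part of other cells in the levels of the Kupffer cell genes was not tested.

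Endothelial markers bear on *Cdh5*. Their sum over 10 genes was 10.7 to 23.7 CPM in mutants and 18.7 to 27.3 CPM in controls, with overlapping groups. None of the 5 tested was called by edgeR (0 higher and 1 lower at an unadjusted p under 0.05). At an adjusted p under 0.05 DESeq2 called 1 in each direction. *Pecam1* was 0.605 to 5.01 CPM in mutants and 5.12 to 13.3 CPM in controls (-1.97 ± 0.61, adjusted p = 0.0664). Of the 6 hepatocyte markers matched, *Ahsg* was at 0, *Alb* had no count in any mutant, and the sum without *Ttr* was at most 0.670 CPM in mutants and 1.21 CPM in controls. *Ttr*, which the choroid plexus also makes, was 24722 to 41316 CPM in mutants and 7081 to 24421 CPM in controls (1.05 ± 0.36, adjusted p = 0.0903). The summed monocyte, neutrophil, lymphocyte, neuron, astrocyte, oligodendrocyte and red cell markers overlapped between the groups. Of their genes *Cd3e*, of T cells, rose to 5.36 to 9.41 CPM from 0.867 to 3.09 CPM (1.87 ± 0.42, adjusted p = 0.0195, 0.0573 without control 2), and *Camp*, of neutrophils, was called lower with a call lost in 5 of the 8 fits that left out 1 library. Both calls were also lost with the replicate number as a block. The summed neuron, astrocyte and oligodendrocyte markers were highest in replicate 1 of both groups. For oligodendrocytes the sum was 3324 CPM in mutant 1 and 3969 CPM in control 1, against at most 1940 CPM in the other libraries. Mutant 1 was also the highest mutant for 5 of the 7 members compared above, and a link was not tested.

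**Figure D4:**
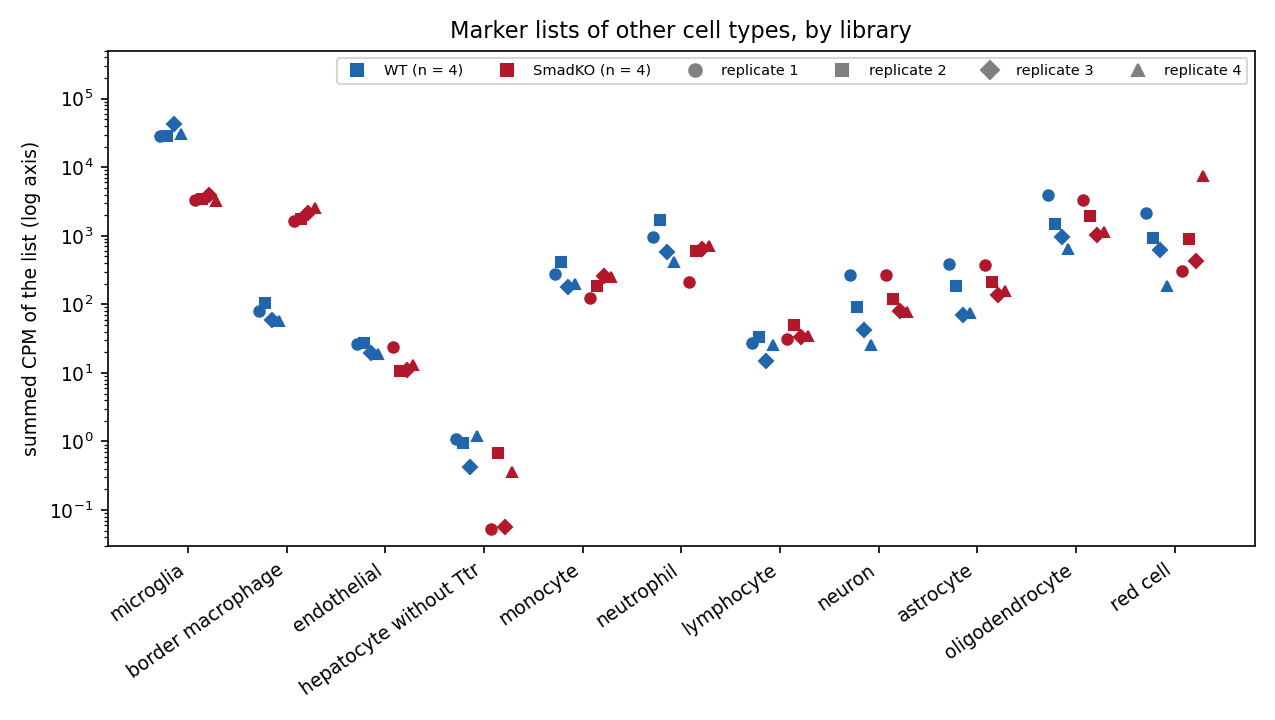
Summed CPM of each marker list in each library on a log axis, with controls in blue, mutants in red and a symbol for each replicate number. The hepatocyte list is drawn without *Ttr*. The microglia list is lower in all mutants and the border macrophage list higher in all mutants, and the other lists overlap between the groups.

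Other genes related to the members were tested in 5 lists, over all 20153 genes, of which 4.36% were called higher and 7.97% lower at an adjusted p under 0.05. The lists were written with earlier results of these data known, so their shares and medians are descriptions and no independent support. Among 16 further liver macrophage genes, 5 of the 15 tested rose and none fell, and the median log2 fold change was 1.03 against 0.01 over all genes tested. At an unadjusted p under 0.05 by edgeR 8 were higher and 1 lower, and at an adjusted p under 0.05 by DESeq2 7 and 0. *Id3*, an inhibitor of DNA binding that Kupffer cells need, was 1693, 1648, 3681 and 3208 CPM in mutants 1 to 4 and 46.5, 59.5, 25.3 and 50.5 CPM in controls 1 to 4 (5.81 ± 0.42, adjusted p = 7.84e-05). *Cd163*, the hemoglobin-haptoglobin receptor, which is also on the border macrophage list, rose by 4.06 ± 0.42 (adjusted p = 0.000411), *Dmpk*, a protein kinase, by 3.33 ± 0.37 (adjusted p = 0.000633) and *Hpgd*, which breaks down prostaglandins, by 1.03 ± 0.20 (adjusted p = 0.0107). For all 4 of these each mutant exceeded each control. *Itga9* was also called higher but kept its call in only 3 of the 8 fits that left out 1 library. The iron exporter *Slc40a1* (-0.61 ± 0.24, adjusted p = 0.127) and *Pcolce2* (0.73 ± 0.45, adjusted p = 0.333) did not pass the test. *Pcolce2* was highest in mutant 2 (56.9 CPM) and control 4 (34.2 CPM), as was *Ttr*, and the part of other cells in its level was not tested. *Marco*, a scavenger receptor of Kupffer cells, had counts in mutant 2 alone and was not tested, as with *Cd5l* and *C6* among the members.

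Of the partners and targets of *Nr1h3*, 5 of the 18 tested rose and 3 fell, with a median of -0.02. *Apoe*, which carries lipids, was 41598 to 51275 CPM in mutants and 2883 to 5272 CPM in controls (3.50 ± 0.24, adjusted p = 6.32e-05), and *Apoc1* rose by 5.07 ± 0.41 (adjusted p = 0.000114). *Pltp*, a phospholipid transfer protein, rose by 1.94 ± 0.30 (adjusted p = 0.00344) and *Smpdl3a*, a phosphodiesterase, by 0.98 ± 0.23 (adjusted p = 0.0254). By contrast, *Lpcat3*, which remodels phospholipids, was 62.4 to 74.5 CPM in mutants and 243 to 322 CPM in controls (-1.93 ± 0.15, adjusted p = 9.43e-05), and *Mertk* (-1.89 ± 0.29, adjusted p = 0.00345) and *Rxrb*, which encodes a partner of LXR (-0.83 ± 0.18, adjusted p = 0.0184), also fell. The cholesterol exporter *Abca1* was 205 to 322 CPM in mutants and 120 to 201 CPM in controls without overlap and did not pass the test (0.72 ± 0.23, adjusted p = 0.0715). *Scd2*, a desaturase, did not either (-0.09 ± 0.42, adjusted p = 0.922). The call of *Smpdl3a* was lost without mutant 1, mutant 2 or control 4 and that of *Rxrb* without mutant 2, control 2 or control 3.

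Genes of heme and iron handling, listed together with *Vcam1*, surround the role of *Spic*. Of the 12 tested, 2 rose and none fell, with a median of -0.08. At an unadjusted p under 0.05 by edgeR 4 were higher and 2 lower, and at an adjusted p under 0.05 by DESeq2 4 and 0. *Vcam1*, an adhesion molecule that *Spic*-dependent macrophages carry, was 847 to 1848 CPM in mutants and 22.1 to 76.3 CPM in controls (4.59 ± 0.45, adjusted p = 0.000315). *Blvrb*, a biliverdin reductase, was 169 to 231 CPM in mutants and 45.4 to 62.0 CPM in controls (1.98 ± 0.17, adjusted p = 0.000145). The ferritin genes *Fth1* (0.29 ± 0.16, adjusted p = 0.264) and *Ftl1* (0.00 ± 0.20, adjusted p = 0.996) did not pass the test.

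RNA levels of 14 Notch and BMP genes, pathways that help to set Kupffer cell identity in the liver, were compared. Of these genes 5 rose and 3 fell, with a median of -0.06, and signalling itself was not measured. *Rbpj*, 1 of the 5, kept its call in only 3 of the 8 fits that left out 1 library. *Id1*, a target of BMP signals, was 393 to 880 CPM in mutants and 10.7 to 19.0 CPM in controls (5.33 ± 0.36, adjusted p = 6.32e-05), and *Id2* rose by 2.15 ± 0.24 (adjusted p = 0.000639) beside *Id3* given above. The Notch target *Hes1* rose by 2.77 ± 0.33 (adjusted p = 0.000912). *Eng*, a co-receptor for BMP9 and TGFβ, was 5.02 to 8.08 CPM in mutants and 33.5 to 66.3 CPM in controls (-2.93 ± 0.27, adjusted p = 0.000215). *Smad1*, the effector of BMP receptors, and *Smad4*, the partner of all receptor-activated Smads, fell by 0.92 and 0.75 on the log2 scale (SE 0.24 and 0.19, adjusted p = 0.0386 and 0.0368). Both calls were lost when libraries were scaled by their totals, and in 7 and 5 of the 8 fits that left out 1 library, only *Eng* being called lower without mutant 2, mutant 4, control 1, control 2 or control 3. The receptors *Notch2* (-0.20 ± 0.16, adjusted p = 0.461) and *Acvrl1* (-0.15 ± 0.19, adjusted p = 0.653) did not pass the test.

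The last list holds receptors, ligands and enzymes that act with the members, of which 4 of the 25 tested rose and 4 fell, with a median of 0.11. Among partners of *Timd4* in the uptake of dying cells, *Axl* was 382 to 551 CPM in mutants and 13.4 to 25.1 CPM in controls (4.68 ± 0.28, adjusted p = 4.19e-05) and the phosphatidylserine receptor *Stab1* rose by 1.43 ± 0.18 (adjusted p = 0.00119). *Stab2* had no count in any control and 470 in the mutants. This is at least 150-fold higher against a floor of 3 counts over the control group. *Stab2* passed the filter through the mutants alone, so its call, among the 4 higher, is a description and no p-value is given. The median of the list is the same with *Stab2* at that bound. The other TIM family member *Havcr2* fell by 2.09 on the log2 scale (SE 0.26, adjusted p = 0.00109), as did the bridging protein *Pros1* by 2.47 (SE 0.25, adjusted p = 0.000409) and *Mertk*, given above, whereas *Gas6* did not pass the test (0.52 ± 0.17, adjusted p = 0.0846). *Havcr1* and *Timd2* had no count.

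Of the genes that act with *Folr2* in folate uptake, the transporter *Slc46a1* fell by 1.73 (SE 0.17, adjusted p = 0.000325) and *Folr1*, the neighbour of *Folr2*, did not pass the test (0.78 ± 0.32, adjusted p = 0.145). *Folr1* was highest in mutant 2 (445 CPM) and control 4 (325 CPM) and lowest in mutant 1 (291 CPM) and control 3 (102 CPM). *Ttr*, which the choroid plexus also makes, was highest and lowest in the same libraries. The part of other cells in the level of *Folr1* was not tested. Beside *C6*, the terminal complement genes *C7*, *C8a* and *C8b* had no count, and *Cd59a*, which protects cells from the membrane attack complex, rose by 1.70 ± 0.26 (adjusted p = 0.00302).

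**Figure D5:**
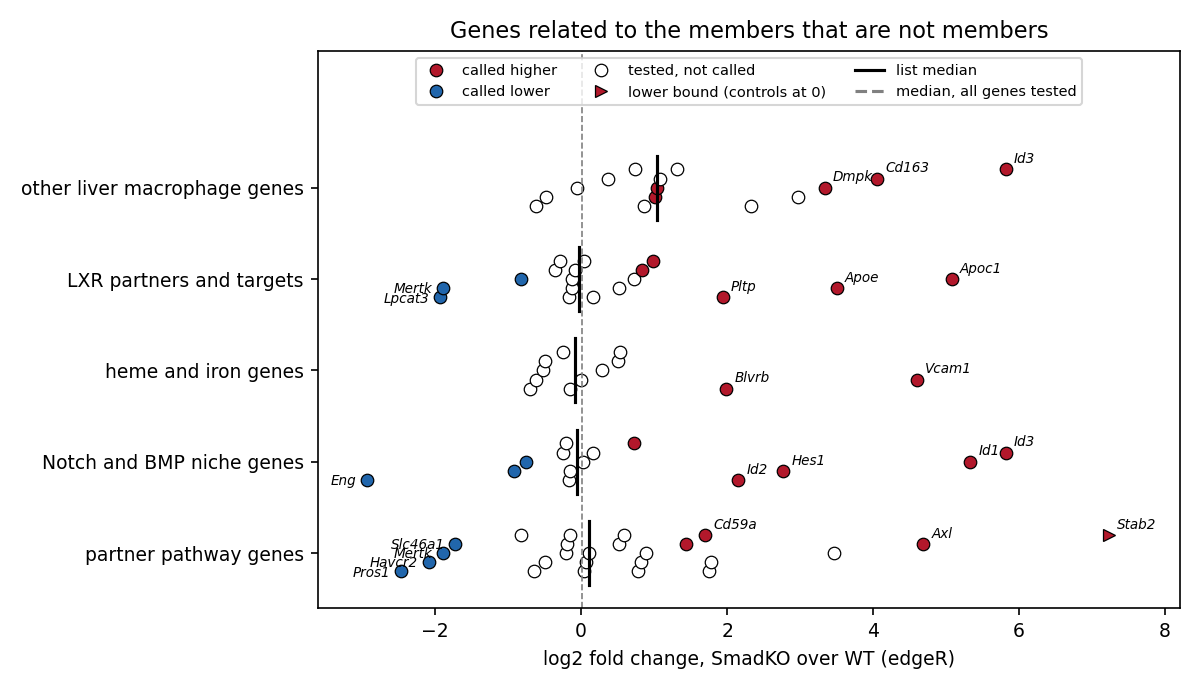
Log2 fold change of mutants over controls for each tested gene of the 5 lists of related genes, with called genes filled (red higher, blue lower), the list median as a black bar and the median of all genes tested, 0.01, as a dashed line. *Stab2*, with no control count, is drawn at its lower bound. Calls lie on both sides of 0 in 3 of the lists.

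The nearest protein-coding gene on each side of every member was read after the values of the members had been seen. Of these 20 genes 16 were tested, 1 was called higher and 3 lower, against 4.36% and 7.97% of all genes. *Cd207*, the C-type lectin langerin, lies 15027 bases from *Clec4f* and was 1428 to 2543 CPM in mutants and 1.82 to 4.55 CPM in controls (9.40 ± 0.41, adjusted p = 9.76e-06), whereas *Stambp* on the other side of *Clec4f* did not pass the test (-0.64 ± 0.20, adjusted p = 0.0721). *Acp2*, 50 bases from *Nr1h3*, fell by 0.81 (SE 0.18, adjusted p = 0.0209), opposite in direction to *Nr1h3*. *Fcrls* and *Fcrl1*, beside *Cd5l*, fell by 2.52 and 3.30 (SE 0.28 and 0.47, adjusted p = 0.000633 and 0.00230). The neighbours of *Vsig4*, *Timd4*, *Spic* and *Il18bp* were not tested or not called.

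The genes whose log2 CPM over the 8 libraries was most like the mean standardized profile of the 8 members fitted were *Aoah*, *Htatip2*, *Ecm1*, *Dnase1l1* and *Sgsh*, with Pearson's r from 0.976 to 0.984. The gene most like each member was *Cd207* for *Vsig4* (r = 0.996), *Cd4* for *Clec4f* (r = 0.995), *Ifi47* for *Timd4* (r = 0.992), *2610507B11Rik* for *Spic* (r = 0.986), *Tmem51* for *Il18bp* (r = 0.994), *Cyp4f16* for *Nr1h3* (r = 0.961), *Pigs* for *Folr2* (r = 0.957) and *Eif1ad* for *Cdh5* (r = 0.950). These values are descriptions over 8 libraries that fall into 2 groups, so a gene that differs between the groups reaches a high r by that alone.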

How the data were processed

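RNA of sorted microglia from 4 mutant and 4 control mice at P60 was sequenced with 1 library per mouse. The authors used Rsubread for alignment to mm10, counted reads on genes with featureCounts and compared the groups with DESeq2 1.28, according to the Methods and the labels. The deposited raw counts are whole numbers without normalization. The versions of the aligner and counter, the annotation and the strand setting are not given in the sources used here. For the library kit and read layout the labels (Nextera XT, single-end) and the Methods (NEBNext Ultra II, paired-end) differ, and both are unstranded. The Methods point to another deposit for the Smad2/3 data, and the identity of the experiment rests on the labels. A deposited table of the authors' own comparison (fold changes, standard errors, means, test statistics and p-values) was not used.

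The members and the gene lists were chosen with earlier results of these data known. Of 55573 genes, 55394 matched a symbol of GENCODE M21. The 20153 genes counted at least 10 times in 4 or more libraries were fitted with edgeR 4.0.16 in R 4.3.3 (TMM, glmQLFit and glmQLFTest without a block, Benjamini-Hochberg adjustment over all genes tested, call under 0.05), after a run on simulated counts. Standard errors were taken from the fold change and the F statistic. Levels per length used the merged exons. Spread between mice limits the precision of well expressed genes and counting error that of members near 0, and intervals from counts treat reads as independent, which they are not without molecular identifiers. The labels do not say that the samples of a group were raised or sorted separately, so p-values measure the spread between these libraries.

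Genes were named by rule: all members, *Smad2*, *Smad3*, *Cx3cr1*, of each list up to 4 genes called higher and 4 called lower with the largest change and no overlap between groups and up to 2 uncalled genes with the highest CPM, the most abundant gene of each marker list, and the genes closest in profile to the members. Flanking genes, sex-linked genes, genes at 0, *Camp*, *Alb*, *Cbr2*, *Clec10a*, *Itga9* and *Rbpj* were named after their values were seen. Alternatives were DESeq2 1.42.0 on all listed genes, RLE size factors, library totals, no filter, a stricter filter (all 8 libraries), a replicate block, and leaving out single libraries. Python 3.11.15, pandas 2.3.3, numpy 2.4.6 and matplotlib 3.10.9 made tables and plots.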

Additional observations from a re-analysis of the deposited data

Results flagged for a closer look

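In 22 groups of 4 libraries, the CPM of each member and of *Smad2* and *Smad3* were examined for a library far from the others of its group by Dixon's criterion, a gap relative to the range that chance meets in about 1 of 20 groups. It was met in 2 groups. *Clec4f* was 0.885 CPM in control 2, from 34 counts, against at most 2 counts in each of the other controls (gap over range 0.939). *Cd5l* was 0.839 CPM in control 3, from 30 counts, against at most 2 counts in each of the other controls (0.966). The first value is below the lowest mutant value of *Clec4f*, 52.4 CPM, whereas the second is above every mutant value of *Cd5l*, the highest of which was 0.0836 CPM.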

How the results depend on the processing

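The fold changes of the members kept their direction under every alternative that gave a value. Leaving out single libraries, log2 fold changes ranged from 9.56 to 10.8 for *Vsig4*, from 7.88 to 11.3 for *Clec4f*, from 6.09 to 8.04 for *Timd4*, from 6.49 to 8.70 for *Spic*, from 3.27 to 3.96 for *Nr1h3*, from 4.43 to 4.99 for *Il18bp*, from 2.48 to 3.37 for *Folr2* and from -1.77 to -0.44 for *Cdh5*. Asking for 10 counts in each of the 8 libraries left only *Il18bp* among the members, since it removes genes at or near 0 in controls.

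Over all genes, 878 were called higher and 1607 lower. DESeq2 called 2089 and 2662, on more genes. Leaving out 1 library gave 525 to 1024 higher, falling to 573 without mutant 2, 525 without control 2 and 562 without control 3, and 1005 to 1587 lower, falling to 1047 without control 2 and 1005 without control 3. DESeq2 called 4 genes of the heme and iron list higher. With library totals, which raised the median log2 fold change of all genes by 0.12, 1 Notch and BMP gene was called lower, and leaving out 1 library gave 1 to 3. It also gave 0 to 1 liver macrophage gene and 0 to 1 heme and iron gene called lower, in both cases *Slc40a1* without mutant 1. The fold change of *Smad3* was -1.35 without a filter (adjusted p = 0.0510 by edgeR) and -1.79 to -1.11 with 1 library left out. The causes were not tested.

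Both groups carry replicate numbers 1 to 4, and the labels do not say what they pair. Deviations from the group means of libraries with the same number correlated at 0.166, 0.0183, 0.144 and 0.114 for numbers 1 to 4, and 6 of 8 libraries were closest to their own number. With the replicate block, edgeR called 886 genes higher and 1497 lower, and the counts of the 5 lists of related genes did not change, but *Cd3e* and *Camp* of the marker lists lost their calls. The log2 fold change with the block was 10.02 for *Vsig4*, 8.86 for *Clec4f*, 7.12 for *Timd4*, 7.48 for *Spic*, 4.15 for *Nr1h3*, 4.71 for *Il18bp*, 2.71 for *Folr2* and -1.13 for *Cdh5*, of which *Timd4* moved by over 1.5 times in fold and *Folr2* was the only one to come closer to 0.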
